A study of Homo sapiens with 4 samples.

Results

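The regions described here lay at 2 gene loci, ABCC4 on chromosome 13 and ITGA4 on chromosome 2, and were followed through 4 lists of accessible chromatin. A locus was the GENCODE gene body together with the 150 kb upstream of its transcription start site (TSS) on hg19. Peaks of the 4 lists that overlapped by at least 1 bp were joined into regions, and 45 of the 78063 regions of the genome lay at these loci, 29 at ABCC4 and 16 at ITGA4. The loci were chosen by their number of control-only regions, that is, regions with a peak in both control libraries and in neither ATRA library. Presence and strength of the peaks are therefore given as a description, with no test.

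HL-60 is an established human promyelocytic leukaemia line that retinoic acid drives towards granulocytes. Cells were cultured for 4 days with all-trans retinoic acid (ATRA) at 1 µM, or with its solvent ethanol as the control, and medium and agent were renewed on day 2. Each group held 2 libraries, described by the study as independent biological replicates, of the assay for transposase-accessible chromatin (ATAC-seq), whose enzyme inserts adapters where DNA is open. All cells came from this 1 line.

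The 4 lists held 42081 peaks in control replicate 1, 45903 in control replicate 2, 43494 in ATRA replicate 1 and 63541 in ATRA replicate 2. The list of ATRA replicate 2 stood apart, with a median peak width of 416 bp against 291 to 328 bp in the other libraries and 31.6 Mb covered against 16.3 to 17.5 Mb. The lists gave a peak caller score from 50.0 to 3100 and no read counts, so the depth of the libraries is unknown. Among 10 myeloid promoters, SPI1, CEBPE and ITGAM had a peak in all 4 libraries, 8 had one in at least 1 library, and the granule genes ELANE and AZU1 had none. None of 11 promoters of T cell, B cell, erythroid and hepatocyte genes had a peak in any library.

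ABCC4 encodes an ATP-binding cassette transporter of the plasma membrane, also called multidrug resistance protein 4, which carries cyclic nucleotides, prostaglandins and several nucleoside-like drugs out of the cell. ITGA4 encodes the integrin alpha-4 chain, which pairs with the beta chains from ITGB1 or ITGB7 and holds haematopoietic progenitors and leukocytes to VCAM1, fibronectin and MADCAM1. Open regions in introns and upstream of a gene are often bound by transcription factors, and GATA, PU.1, RUNX and C/EBP factors are the ones best known from blood cells.

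Sequences of 4 of the 6 control-only regions of ABCC4 are printed first, since 3 of these held a GATA motif and one did not, and a region found in all 4 libraries follows them because it held 2 such motifs. Each line is the central 200 bp of a region on the plus strand of GRCh37 (hg19), the strand opposite to the ABCC4 transcript. Capitals mark the motifs, searched on both strands, so that a site on the other strand reads as its reverse complement. The GATA motif was searched as AGATAA and as the variant TGATAA. The RUNX motif was searched as AACCACA, and the C/EBP motif, bound by granulocytic factors such as CEBPE, as TTGCNNAA. The E-box is CACGTG.
ABCC4 intron 8, 99.2 kb into the gene, chr13:95854448-95854647: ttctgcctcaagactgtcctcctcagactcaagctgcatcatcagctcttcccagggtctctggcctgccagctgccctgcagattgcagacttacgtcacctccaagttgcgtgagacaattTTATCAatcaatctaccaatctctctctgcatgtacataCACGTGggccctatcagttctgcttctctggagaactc
ABCC4 intron 1, 27.0 kb into the gene, chr13:95926664-95926863: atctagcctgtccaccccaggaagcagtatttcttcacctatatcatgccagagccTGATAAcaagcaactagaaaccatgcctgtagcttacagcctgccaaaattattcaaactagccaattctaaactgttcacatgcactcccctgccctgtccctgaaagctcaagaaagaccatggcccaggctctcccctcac
ABCC4 upstream, 13.2 kb, chr13:95966816-95967015: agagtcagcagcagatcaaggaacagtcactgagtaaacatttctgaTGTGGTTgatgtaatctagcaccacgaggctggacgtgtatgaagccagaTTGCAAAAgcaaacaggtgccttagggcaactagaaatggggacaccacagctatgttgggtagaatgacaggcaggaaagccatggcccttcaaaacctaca
ABCC4 upstream, 66.1 kb, chr13:96019693-96019892: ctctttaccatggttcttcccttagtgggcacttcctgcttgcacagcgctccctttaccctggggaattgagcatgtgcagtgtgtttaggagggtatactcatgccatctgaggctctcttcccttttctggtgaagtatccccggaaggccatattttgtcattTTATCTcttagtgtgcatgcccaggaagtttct
ABCC4 intron 1, 15.5 kb into the gene, peaks in all 4 libraries, chr13:95938155-95938354: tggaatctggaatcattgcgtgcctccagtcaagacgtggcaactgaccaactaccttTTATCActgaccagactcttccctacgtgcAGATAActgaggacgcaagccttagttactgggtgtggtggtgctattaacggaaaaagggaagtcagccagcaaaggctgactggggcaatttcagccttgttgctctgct

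For ITGA4 the only control-only region with a GATA motif is shown, with the control-only region of highest score and the single region found in the ATRA group alone, neither of which held a listed motif in its central 200 bp.
ITGA4 intron 2, 4.04 kb into the gene, chr2:182325866-182326065: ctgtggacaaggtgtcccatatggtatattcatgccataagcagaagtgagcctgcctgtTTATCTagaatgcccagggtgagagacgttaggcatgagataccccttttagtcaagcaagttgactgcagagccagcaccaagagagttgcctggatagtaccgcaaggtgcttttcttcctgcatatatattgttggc
ITGA4 upstream, 46.0 kb, chr2:182275870-182276069: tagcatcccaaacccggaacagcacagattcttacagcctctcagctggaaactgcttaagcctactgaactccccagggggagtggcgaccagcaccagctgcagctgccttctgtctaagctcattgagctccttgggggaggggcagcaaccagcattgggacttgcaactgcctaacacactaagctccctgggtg
ITGA4 upstream, 50.0 kb, peaks in both ATRA libraries and in neither control, chr2:182271837-182272036: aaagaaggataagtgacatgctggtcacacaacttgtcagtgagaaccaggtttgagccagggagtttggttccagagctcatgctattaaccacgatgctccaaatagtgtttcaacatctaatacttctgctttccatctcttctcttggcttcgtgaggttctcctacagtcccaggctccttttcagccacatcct

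The ABCC4 locus spanned 432 kb, from the gene (ENSG00000125257, chr13:95672089-95953729, minus strand, 31 exons) to its upstream limit. Control replicates 1 and 2 had peaks in 22 and 20 of its 29 regions, and ATRA replicates 1 and 2 in 13 and 20. Of the 29 regions, 6 were control-only (20.7%), none was ATRA-only, 12 had a peak in every library and 11 showed other patterns. In the genome 3.37% of regions were control-only and 8.94% were ATRA-only, and nothing is read from this contrast, which chose the loci. Of the 11 other regions, 8 had a peak in a single library, 5 of them in ATRA replicate 2 and 3 in control replicate 1. Without ATRA replicate 1, those 5 regions of ATRA replicate 2 made the ATRA-only count 5 in place of 0. Without control replicate 2, the control-only count was 9 and the ATRA-only count 1.

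The ITGA4 locus spanned 232 kb, with the gene (ENSG00000115232, chr2:182321929-182403667, plus strand, 28 exons) at its far end. Control replicates 1 and 2 had peaks in 13 and 12 of its 16 regions, and ATRA replicates 1 and 2 in 8 and 9. Here 5 regions were control-only (31.2%), 1 was ATRA-only (6.25%), 6 had a peak in every library and 4 showed other patterns. The ATRA-only count was 2 without ATRA replicate 1, without ATRA replicate 2 or without control replicate 1. Per 100 kb, the control-only regions numbered 2.16 at ITGA4 and 1.39 at ABCC4.

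**Figure D1:**
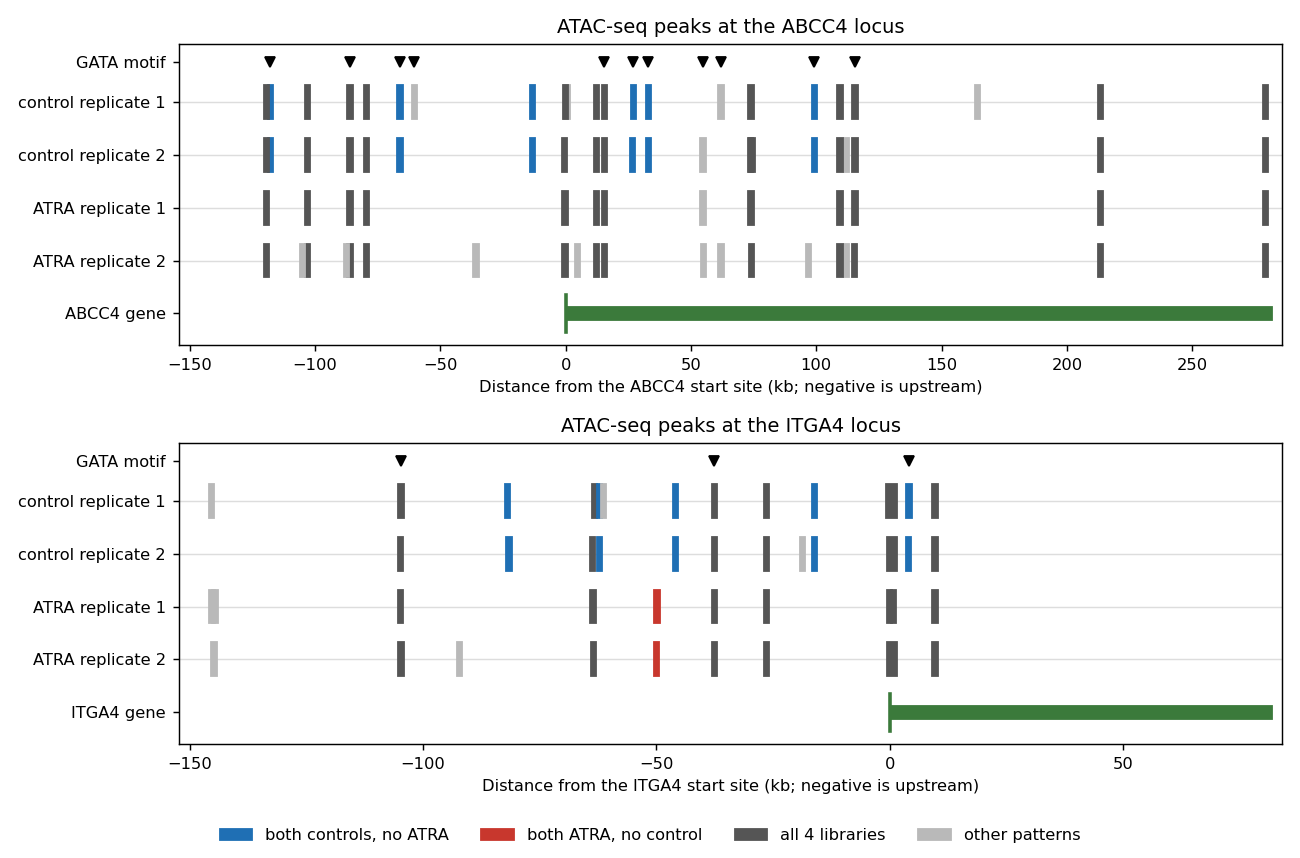
Peaks at the ABCC4 (top) and ITGA4 (bottom) loci, by library (rows) and distance from the TSS in kb (horizontal axis, negative upstream). Each box is 1 peak, drawn no narrower than 0.5% of the locus width and coloured by the libraries that share its region, triangles mark regions with a GATA motif in the central 200 bp, and the green bar is the gene. The 6 blue positions of ABCC4 and 5 of ITGA4 have boxes in both control rows and none in the ATRA rows.

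The 11 control-only regions lay away from both promoters. At ABCC4, 3 were intronic and 3 upstream, and at ITGA4, 1 was intronic and 4 were upstream. None overlapped an exon of its gene. No region at either locus had peaks in both controls and in exactly 1 ATRA library. In the genome 4805 of 78063 regions had that pattern, 4309 with ATRA replicate 2 (5.52%) and 496 with ATRA replicate 1 (0.635%). At such shares few of the 45 regions would hold it, so nothing is read from its absence. A region without a peak fell below the score minimum of the list, so presence in a list does not give the signal that remained in the ATRA cells. From such bulk libraries, fewer cells with an open site and less opening in each cell cannot be told apart.

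The control peaks are given by their score and by its percentile, the rank of the score among all peaks of the same list (the best peak where a region held more than one). Among the control-only regions of ABCC4, the one of highest score in control replicate 1 lay in intron 8 (chr13:95854302-95854794), 99.2 kb into the gene. It scored 185 in control replicate 1 (78.2nd percentile, 493 bp wide) and 99.2 in control replicate 2 (55.4th percentile, 336 bp), with no peak in either ATRA library. Its central 200 bp held a GATA motif and an E-box.

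In intron 1 of ABCC4, the control-only region 27.0 kb into the gene (chr13:95926456-95927072) lay at the 76.6th percentile in control replicate 1 and the 63.0th in control replicate 2, with no peak in either ATRA library. It overlapped the lncRNA gene ENSG00000289887 and held 1 GATA motif in its central 200 bp, or 2 over the whole region.

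Upstream of ABCC4, the weakest control-only region (chr13:95966768-95967064), 13.2 kb from the TSS, lay at the 47.2nd and 29.9th percentiles in control replicates 1 and 2. It was also the narrowest, at 297 bp, and the only one of the 6 without a GATA motif. It held a RUNX and a C/EBP motif instead. The region 66.1 kb upstream (chr13:96019619-96019967) lay at the 62.1st and 73.2nd percentiles and held a GATA motif. All 3 upstream control-only regions also fell in the locus of CLDN10, a claudin gene on the plus strand that starts at chr13:96085858, and the peak lists do not tell which gene, if either, a region acts on.

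At ITGA4 the control-only region of highest score lay 46.0 kb upstream (chr2:182275729-182276211). It scored 208 in control replicate 1 (81.6th percentile) and 257 in control replicate 2 (92.3rd percentile), the highest control-only ranks of either locus. The ATRA-only region (chr2:182271545-182272329), 50.0 kb upstream, was its nearest neighbour, 3400 bp away. It scored 223 in ATRA replicate 1 (81.3rd percentile, 484 bp) and 375 in ATRA replicate 2 (92.0th percentile, 785 bp). Outside its central 200 bp, the ATRA-only region held 1 GATA, 1 C/EBP and 2 AP-1 motifs (TGACTCA or TGAGTCA). The 2 highest-ranked regions found in 1 group alone at ITGA4 were thus adjacent and of opposite group.

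Further upstream, 2 control-only regions lay within the lncRNA gene LINC01934, as did the ATRA-only region. The one 81.8 kb upstream (chr2:182239615-182240577) was the widest of the 11, at 963 bp, and lay at the 68.2nd and 75.1st percentiles in control replicates 1 and 2. The one 62.2 kb upstream (chr2:182259446-182259963) lay at the 14.7th and 65.0th percentiles, the widest disagreement between controls among the 11. In control replicate 1 its score of 61.3 was close to the list minimum.

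Nearer the gene, the region 16.2 kb upstream (chr2:182305513-182305994) lay at the 68.0th and 59.6th percentiles and held a C/EBP motif. The intronic one (chr2:182325605-182326327), in intron 2 and 4.04 kb into the gene, lay at the 51.0th and 44.9th percentiles and held a GATA motif. It was 2149 bp from the promoter region. Beyond the region 9.64 kb into the gene, no library had a peak in the remaining 71.9 kb of ITGA4. The longest stretch of the ABCC4 locus without a peak was 65.3 kb, near the end of that gene.

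Over both loci, the control-only peaks had a median percentile of 68.0 in control replicate 1 and 59.7 in control replicate 2, where the 2633 control-only regions of the genome had 38.5 and 38.4. Both control peaks lay above those genome medians in 9 of the 11 regions. The exceptions were the ABCC4 region 13.2 kb upstream and the ITGA4 region 62.2 kb upstream. Median peak widths were 473 and 468 bp at the loci and 302 and 278 bp in the genome. These are ranks and widths of peaks that the choice of loci used, and they were not tested.

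**Figure D2:**
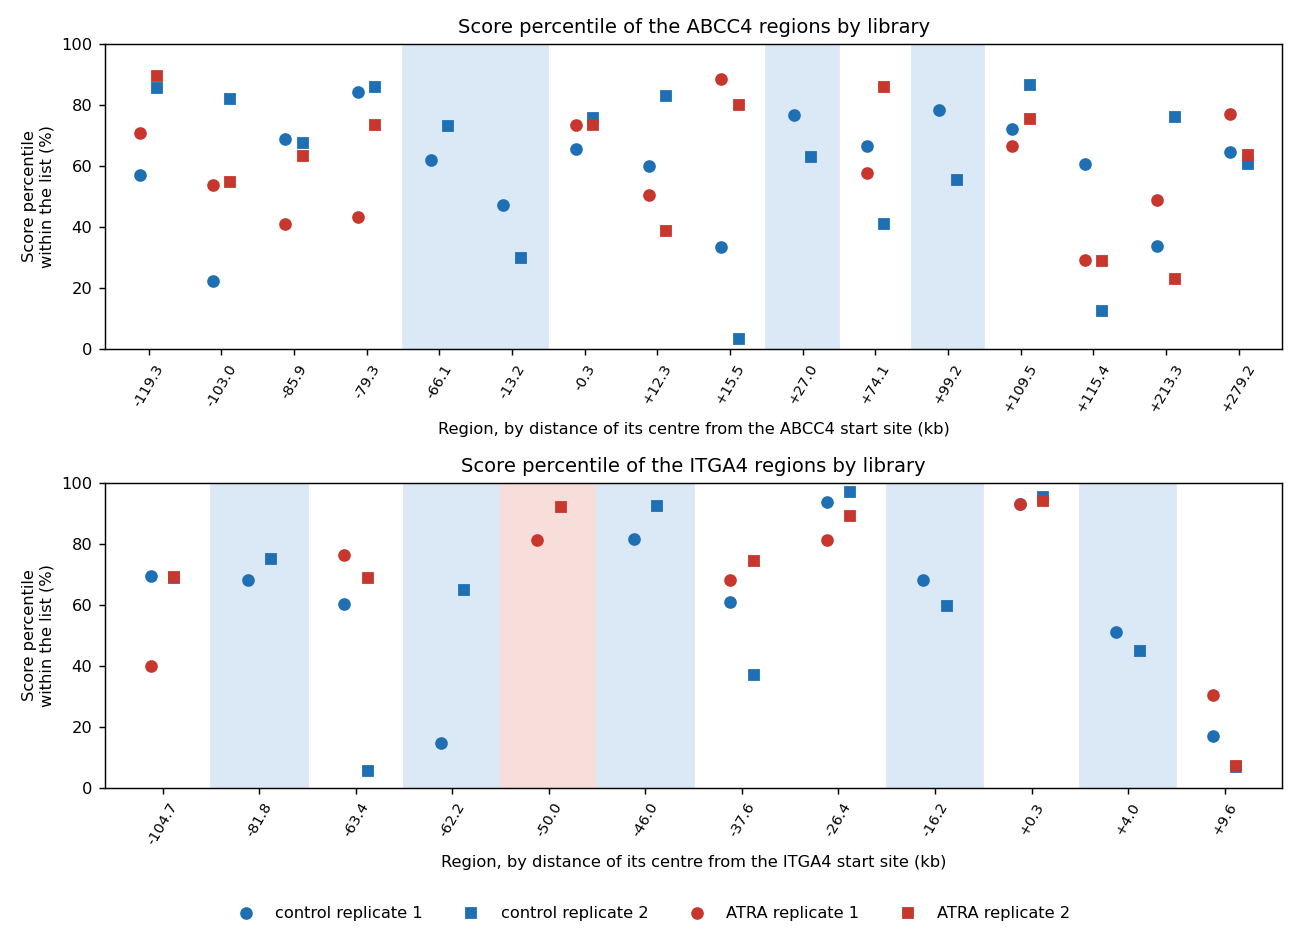
Score percentile within each list (vertical axis, %) of the regions of ABCC4 (top) and ITGA4 (bottom) that were control-only (blue band), ATRA-only (red band) or present in all 4 libraries (no band), ordered by distance from the TSS (kb), with 4 of the 6 control-only regions of ABCC4 shown. Each point is 1 library, with the control in blue and ATRA in red. At 15.5 kb into ABCC4 the ATRA points sit at 88.5 and 80.0 and the control points at 33.4 and 3.24, whereas the points of both promoters lie close together.

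Both promoters were open in every library. The ABCC4 promoter region (chr13:95953547-95954452), over exon 1, lay at the 65.6th and 75.8th percentiles in control replicates 1 and 2 and at the 73.4th and 73.3rd in ATRA replicates 1 and 2, so the groups overlapped. Its ATRA peaks, 604 and 776 bp wide, were wider than the control peaks of 456 and 600 bp, but 604 and 600 bp are nearly equal. The wider ATRA peak was of replicate 2, whose peaks were wider throughout. In regions of all 4 libraries in the genome, their median width was 579 bp, against 391 bp in ATRA replicate 1 and 384 and 358 bp in the controls. The ITGA4 promoter region (chr2:182321096-182323456) lay at the 93.2nd and 95.5th percentiles in the controls and the 93.2nd and 94.1st in the ATRA libraries, again with overlap. The control peaks there covered 2361 and 2201 bp. ATRA replicate 1 had 2 peaks, of 919 and 690 bp, which spanned 1680 bp with the gap between them. The ATRA replicate 2 peak covered 2187 bp.

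Of the 12 ABCC4 regions with peaks in all 4 libraries, 1 had higher percentiles in both ATRA libraries than in both controls, 3 had higher ones in both controls and 8 overlapped. Of the 6 at ITGA4, the counts were 2, 1 and 3. Among the 23653 such regions of the genome, 29.2% were higher in both ATRA libraries and 12.8% in both controls. Their median percentile was 79.2 in ATRA replicate 2, the longest list, against 68.9 in ATRA replicate 1. It was 68.2 and 70.5 in control replicates 1 and 2. A percentile difference between lists is thus one of rank and does not measure accessibility. None of these differences was tested.

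The widest separation was in intron 1 of ABCC4 (chr13:95937905-95938605), 15.5 kb into the gene. Its peak scored 300 and 226 in ATRA replicates 1 and 2 (88.5th and 80.0th percentiles), against 77.4 and 52.0 in control replicates 1 and 2 (33.4th and 3.24th percentiles). The mean percentile was 65.9 points higher in the ATRA group. The ATRA peaks were also wider, 424 and 701 bp against 306 and 281 bp, though ATRA replicate 2 had wider peaks over its whole list (median 416 bp). Its central 200 bp, printed above, held 2 GATA motifs on opposite strands with 24 bases between them.

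The 3 ABCC4 regions with higher control percentiles lay 12.3 kb into the gene, and 79.3 and 85.9 kb upstream. The first (chr13:95941163-95941594) lay at the 60.1st and 82.8th percentiles in the controls and the 50.4th and 38.7th in ATRA replicates 1 and 2. The second (chr13:96032808-96033344), at the 84.2nd and 86.0th against the 43.3rd and 73.5th, held the motif of CTCF, the factor that marks many chromatin loop ends. The third (chr13:96039333-96039963) lay at the 69.0th and 67.6th against the 40.9th and 63.3rd, and its ATRA replicate 2 value was close to those of the controls.

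At ITGA4 the region 63.4 kb upstream (chr2:182258052-182259087) lay at the 76.3rd and 68.8th percentiles in ATRA replicates 1 and 2 and at the 60.2nd and 5.37th in the controls. It was the nearest region with peaks in all 4 libraries to the control-only region 62.2 kb upstream. The region 37.6 kb upstream (chr2:182284124-182284577) lay at the 68.3rd and 74.5th in ATRA and the 60.9th and 36.9th in the controls, and held a GATA motif. The region 26.4 kb upstream (chr2:182295083-182295968) was higher in the controls, at the 93.7th and 96.9th percentiles against the 81.2nd and 89.2nd. In the first 2 of these, control replicate 2 lay much lower than control replicate 1.

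A GATA motif lay in the central 200 bp of 5 of the 6 control-only regions of ABCC4 and of 1 of the 5 of ITGA4. The joint share was 54.5% (Wilson 95% interval 28.0 to 78.7%, counting error only), beside 43.7% of the 2633 control-only regions of the genome, 14.3% of the ATRA-only regions, 14.5% of those in all 4 libraries and 18.8% of all regions. At the loci themselves, 3 of 12 and 2 of 6 regions with peaks in all 4 libraries held one. The contrast depended on the window. In whole regions the motif lay in 6 of 11 control-only regions and in 13 of 18 regions of all 4 libraries at the loci (54.5% and 72.2%), and in 54.7% and 42.3% of those classes in the genome. At the loci, control-only regions were at most 963 bp long, while a region of all 4 libraries reached 2361 bp. A longer region has more places for a short motif, and the whole-region shares were not adjusted for length.

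The GATA site of the ITGA4 region was AGATAA, 37 bp from the centre. In the central 200 bp, none of the 11 regions held 2 sites, which 12.9% of control-only regions of the genome did. With a looser GATA motif, chosen after the data were seen, in which the last base could be A or G, 8 of the 11 regions had a site, 5 at ABCC4 and 3 at ITGA4. The ITGA4 regions gained were those 62.2 and 16.2 kb upstream. The looser motif lay in 54.3% of control-only regions and 28.8% of all regions.

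**Figure D3:**
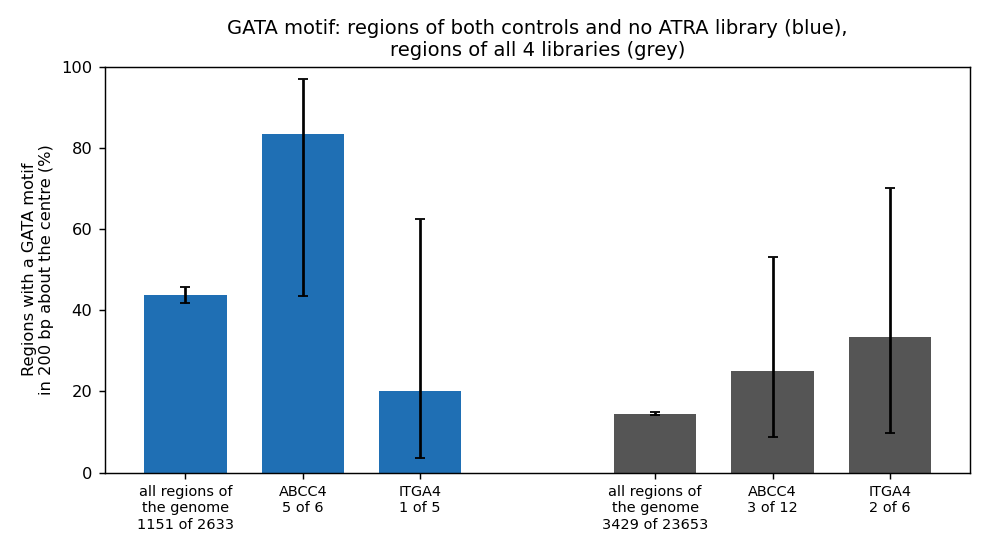
Share of regions with a GATA motif in the central 200 bp (vertical axis, %) for control-only regions (blue) and regions of all 4 libraries (grey), in the genome and at each locus. Bars give the share, error bars the Wilson 95% interval for counting error, and the counts stand under each bar. The interval of ABCC4, 43.6 to 97.0%, and that of ITGA4, 3.62 to 62.4%, both contain the genome share of 43.7%. That share lies next to the lower end of the ABCC4 interval. The intervals rest on 6 and 5 regions, which are not replicates. No test was made, and nothing is read from where the genome share falls.

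Other motifs of blood cell factors are given as counts beside the genome shares, from which 11 regions are too few to be set apart. RUNX lay in 2 of the 11 control-only regions (18.2%), both at ABCC4, beside 14.9% of control-only regions and 8.55% of all regions of the genome. C/EBP lay in 2 (18.2%), one at each locus, beside 15.3% and 12.3%. GAGGAAGT, searched for PU.1, was in none of the 11, beside 8.66% and 8.94%, and the shorter core AGGAAG, also chosen after the data were seen, was in 4, beside 39.8% and 40.4%. A shorter RUNX core, ACCACA, was in the same number of control-only regions as the full motif, 2, beside 28.3% and 19.9%. The E-box was in 1, beside 3.73% of all regions. In none of the 11 were the AP-1 motif, TGACTCA with its variant TGAGTCA, and the motifs of ETS (as CCGGAAGT, which overlaps that of PU.1 in its core), IRF, CTCF and DR5, the element of retinoic acid receptors. These lay in 5.72, 1.11, 3.40, 5.87 and 0.0974% of all regions. No motif of the list was in 3 of the 11 regions, all at ITGA4, which says only that these letters are not in that window. CTCF motifs lay in 2 regions with peaks in all 4 libraries, 79.3 kb upstream of ABCC4 and 9.64 kb into ITGA4.

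Among 20163 protein-coding loci drawn in the same way, ABCC4 had the second highest number of control-only regions. ABCC4 and ITGA4 were chosen by that number, so the rank restates the choice and nothing is read from it. The counts were not scaled by the number of regions or the length of a locus. ZBTB16, which encodes a zinc finger repressor fused to the retinoic acid receptor in a rare promyelocytic leukaemia, had 10 among 20 regions and no ATRA-only region. ABCC4 followed with 6 and ITGA4 with 5. Only 8 loci had 5 or more and 36 had 4 or more. Loci that share most of their control-only regions with one above them were set aside, and 4 further loci then had 5: ABTB2, RUNX2, SEMA4B and SLC6A7. SLC6A7 and ABCC4, like ZBTB16, had no ATRA-only region, among 24 and 29 regions. Of all protein-coding loci 48.0% had an ATRA-only region, but that share covers loci with any number of regions (173083 counted over 20163 loci). It is no like base for loci with 20 to 29 regions, so nothing is read from the absence. GATA2, a GATA factor of haematopoietic progenitors, had 1 control-only and 1 ATRA-only region among 10.

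**Figure D4:**
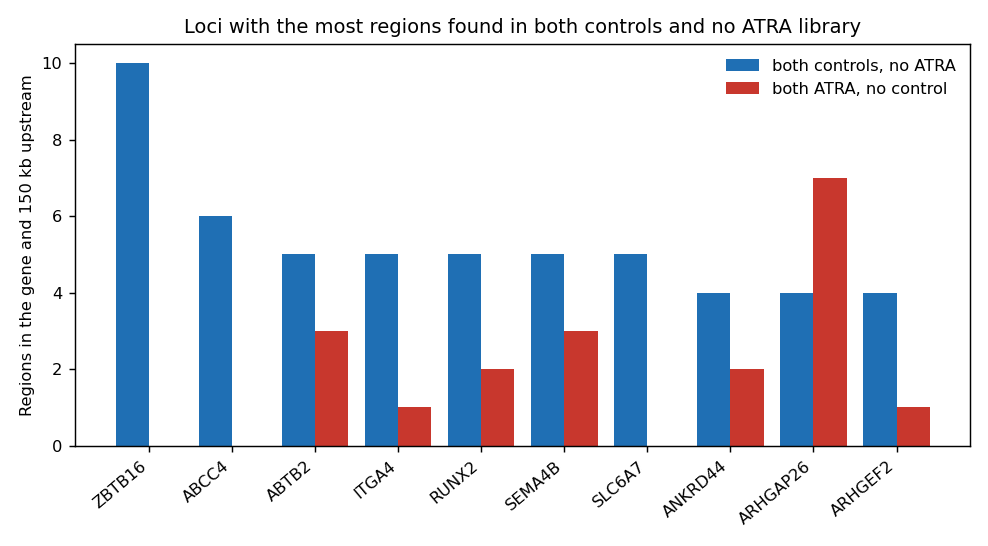
Number of control-only (blue) and ATRA-only (red) regions (vertical axis) at the 10 loci with the most control-only regions (horizontal axis), each the gene and 150 kb upstream. Loci tied at 4 were taken in alphabetical order. ABCC4 has 6 blue and no red, and ITGA4 has 5 blue and 1 red. Both were chosen by the blue count, and counts are not scaled by the regions or length of a locus.

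None of the other ABCC transporter genes listed had as many control-only regions as ABCC4, but ABCC4 was chosen by that number, so nothing is read from this. Of 10 listed, 2 had a control-only region, ABCC1 with 2 and ABCC8 with 1, and 7 had an ATRA-only region, beside 20.4% and 48.0% of all protein-coding loci. ABCC1, the founding drug efflux pump of the group, had 5 ATRA-only regions, and ABCC6 had 4. Among 6 genes of cyclic nucleotide and adenosine signalling, 4 had a control-only (66.7%) and all 6 an ATRA-only region, beside the same 20.4% and 48.0%. Their loci held 95 regions, and a locus with more regions has more places for either class. Nothing is read from these shares or from those of the ABCC genes. PDE4B, a phosphodiesterase that breaks down cyclic AMP, had 4 control-only and 5 ATRA-only regions in a locus of 732 kb, and PDE4D had 3 and 1 in 1700 kb.

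Of 17 other integrin alpha genes, 8 had a control-only region (47.1%) and 10 an ATRA-only region (58.8%), beside the same 20.4% and 48.0% of all protein-coding loci. These shares were not adjusted for the number of regions in a locus, and nothing is read from them. None had more than 2 control-only regions, fewer than ITGA4, which was chosen by that number. ITGAD, ITGAM and ITGAX, which encode leukocyte beta-2 partners and adjoin on chromosome 16, had 2 each, and their loci overlap, so some regions are counted for more than one gene. ITGAL, another leukocyte chain, had 1 control-only and 6 ATRA-only regions. The partners and ligands of alpha-4, which were ITGB1, ITGB7, VCAM1, FN1 and MADCAM1, had no control-only region, a count of 0 of 5 beside 20.4% of all loci, which is too few genes to set apart from that share. ITGB1 and ITGB7 had 1 ATRA-only region each, 2 of 5 beside 48.0%, and the ITGB1 promoter had a peak in all 4 libraries.

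At the edges of the loci, the last regions inside the limits were not control-only. The outermost upstream region of ABCC4 lay 30400 bp inside the limit and was present in all 4 libraries, and the first outside lay 6924 bp beyond it, in ATRA replicate 2 alone. At ITGA4 the outermost lay 4512 bp inside, with peaks in both ATRA libraries and control replicate 1, and the first outside lay 915 bp beyond, in all 4 libraries. With 50 kb upstream in place of 150 kb, 4 control-only regions remained at ABCC4 and 3 at ITGA4.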

How the data were processed

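ATAC-seq libraries of HL-60 cells (2 ATRA, 2 ethanol control) were deposited as 1 peak list per library. The submitters' processing notes name cutadapt, Bowtie2, MACS2 and the hg19 build, and the methods state that the authors called ATAC-seq peaks with MACS2 at its defaults. Each library has its own list. Versions, any Tn5 shift and the treatment of duplicates are not given in the sources used here. The deposited score has no stated scale, so it was used as a rank within its list. No depth is given.

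Peaks were joined (overlap of 1 bp) over 24 chromosomes and placed on GRCh37 with GENCODE 44 lifted to that build, using Python 3.11.15, numpy 2.4.6 and pandas 2.3.3. No peak ran past a chromosome end. Consensus motifs (10) were searched in the central 200 bp of each region. Promoters ran from 1 kb upstream to 100 bp downstream of a TSS. Region classes and motif search were tested on simulated data. Named genes were both loci, ZBTB16, GATA2, the 10 loci with most control-only regions and, of fixed family lists, the members with most regions of 1 group. The sequence and single values of 2 control-only regions of ABCC4 are not reported here. Members and lists were chosen with earlier results of these data known. No test was made. Alternatives varied the peaks counted, their extent, overlap, upstream reach, motif and libraries.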

Additional observations from a re-analysis of the deposited data

How the results depend on the processing

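Of 72 recomputed values of 7 results, 56 stayed within 1.5 times the count, the spread between control libraries or the counting interval, and 16 moved further. Control-only regions of ABCC4 numbered 4 to 6 under the other settings and 6 to 9 with 1 library left out, the 9 without control replicate 2. Those of ITGA4 numbered 3 among the peaks above each list's median score and 3 with 50 kb upstream, and 5 to 6 with 1 library left out. ATRA-only regions of ABCC4 numbered 1 above the median score, 2 when a peak had to cover 50% of a region, 1 by the study's convincing peaks, and 0 to 5 with 1 library left out. Those of ITGA4 numbered 2 by convincing peaks and 1 to 2 with 1 library left out. The median percentile of control-only regions was 65.5 at ABCC4 (55.5 to 65.5 with 1 library left out) and 63.8 at ITGA4 (71.7 above the median score, 55.9 with peaks cut to 200 bp, 59.5 to 63.8 with 1 library left out). The GATA share of 54.5% ranged from 41.7 to 54.5% with 1 library left out and from 50.0 to 72.7% otherwise. The causes were not tested. With every list cut to its 42081 highest scores, no value moved. No paired analysis was possible because these results come from no test, the loci having been chosen by the same contrast. The lists give no read counts, so a missing peak is no measure of remaining signal, and 2 libraries a group limit every comparison.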
